A study of Mus musculus with 10 samples.

Results

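The Sonic hedgehog pathway is described here by 9 genes of the mouse: the ligand gene Shh, the receptor and co-receptor genes Ptch1, Smo, Gas1 and Boc, the transcription factor genes Gli1, Gli2 and Gli3, and the antagonist gene Hhip. All probe sets annotated to exactly 1 of these symbols were taken, which gave 24 of the 45101 probe sets on the array. Of these 24, 17 passed a filter on dim signals (a mean signal of at least 151.4 over all arrays) and were tested, and every gene kept at least 1 tested probe set. The arrays hold RNA from 5 samples labelled Dicer mutant and 5 labelled wild type, numbered 1 to 5 in each group. Each embryo had 1 parent homozygous for floxed Dicer and 1 heterozygous for it, the second with the prxcre driver, a Cre transgene known to act in limb bud mesenchyme and not in the overlying ectoderm. All the embryos, wild type ones included, should therefore carry at least 1 floxed Dicer allele; the labels do not state the exact genotype of each group or where heterozygous embryos were placed. Nor do they state the embryos' age, forelimb or hindlimb, or how many embryos a sample pools, so p-values measure the spread between samples, which may be technical.

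In the limb bud, Shh is made by a small group of posterior mesenchyme cells, the zone of polarizing activity, and its protein spreads to set the number and identity of the digits. Without ligand, the receptor Patched 1 (Ptch1) holds the membrane protein Smoothened (Smo) inactive, and GLI3 is cut to a repressor. Ligand binding frees Smo, GLI2 and GLI3 become activators, and the cells then transcribe Ptch1, Gli1 and Hhip, so that the levels of these 3 genes are commonly read as the response to the signal. Gas1 and Boc encode co-receptors that help present the ligand, and Gas1 is known to be lowered by the signal.

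Probe set values are deposited signals on a linear scale, and a difference is Dicer mutant minus wild type on the log2 scale. Median signals of the 10 arrays lay between 145.8 and 152.8. Limb bud mesenchyme markers were present in every array, with 10 of 10 tested and summed signals of 9140 to 10331 in Dicer mutant and 9181 to 10756 in wild type arrays. Of the other lists, 12 of 12 ectoderm, 7 of 12 cartilage, 9 of 11 muscle, 8 of 10 endothelial, 6 of 10 white blood cell, 4 of 7 red blood cell and 2 of 8 nerve genes on the array passed the filter. The labels were checked by Dicer1, the targeted gene. Its probe set 1427941_at gave 226, 360, 221, 215 and 205 in Dicer mutant 1 to 5, against 425, 233, 372, 390 and 706 in wild type 1 to 5. Both arrays numbered 2 went against their labels: the library labelled Dicer mutant 2 lay close to the wild type values and the library labelled wild type 2 close to the Dicer mutant values, and an exchange of the 2 was not tested. The tests were therefore run on the 10 arrays as labelled and on the 8 arrays left without that pair, a comparison chosen with the Dicer1 values known. Wherever Dicer mutant 2 or wild type 2 is named, the label alone is meant.

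As examples of regulatory sequence, the 250 bases before a RefSeq start are printed for 2 members, Ptch1 and Gas1. The Ptch1 signal followed that of Shh across arrays. Gas1 was the only member with a tested probe set whose groups did not overlap in the 8 arrays. That held for 9.09% of all tested probe sets, and Gas1 was not called. Both are on the minus strand of chromosome 13 in GRCm38.p6 and are written 5′ to 3′ on the gene's strand, Ptch1 at chr13:63565736-63565985 and Gas1 at chr13:60177536-60177785. The Ptch1 window precedes 1 of several annotated starts and lies inside the span of the gene. Capitals mark the GC box GGGCGG or its reverse complement CCGCCC.
Ptch1: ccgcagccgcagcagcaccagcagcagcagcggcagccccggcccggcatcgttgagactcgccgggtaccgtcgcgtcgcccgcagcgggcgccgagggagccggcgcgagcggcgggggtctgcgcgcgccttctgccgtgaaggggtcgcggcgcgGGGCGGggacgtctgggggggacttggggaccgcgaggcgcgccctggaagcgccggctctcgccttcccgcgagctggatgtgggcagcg
Gas1: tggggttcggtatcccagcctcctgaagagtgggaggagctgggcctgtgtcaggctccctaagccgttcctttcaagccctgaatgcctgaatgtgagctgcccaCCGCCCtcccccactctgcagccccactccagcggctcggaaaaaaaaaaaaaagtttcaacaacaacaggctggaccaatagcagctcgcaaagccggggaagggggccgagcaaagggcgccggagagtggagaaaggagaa
The consensus of GLI binding sites, GACCACCCA, was searched for on both strands and was in neither window, nor in any of the 6 member windows in the RefSeq table. It occurred in 74 of all 32851 windows of that length (0.225%). The GC box was in 5 of the 6 member windows, against 32.7% of all windows. GC content was 78.4% for Ptch1 and 58.8% for Gas1, where the median window had 52.4%. A match or its absence in these windows is a description of letters only.

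No member passed the test between the groups. In the 10 arrays as labelled, limma called 0 of the 17 tested probe sets and 0 of all 22519 (0%) at a Benjamini-Hochberg adjusted p below 0.05. An unadjusted p below 0.05 was seen for 1 of the 17, a Gas1 probe set, and for 632 (2.81%) of all. In the 8 arrays, 0 of the 17 were called, where 378 of all 22519 were (1.68%), and 1 of the 17 had an unadjusted p below 0.05, against 2865 (12.7%) of all. The values of the 17 lay on both sides of 0, with 8 above and 9 below in the 8 arrays. Over 1 probe set per gene, the brightest tested one, the median difference of the 9 genes was -0.011, against -0.013 for all 11601 genes tested.

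**Figure D1:**
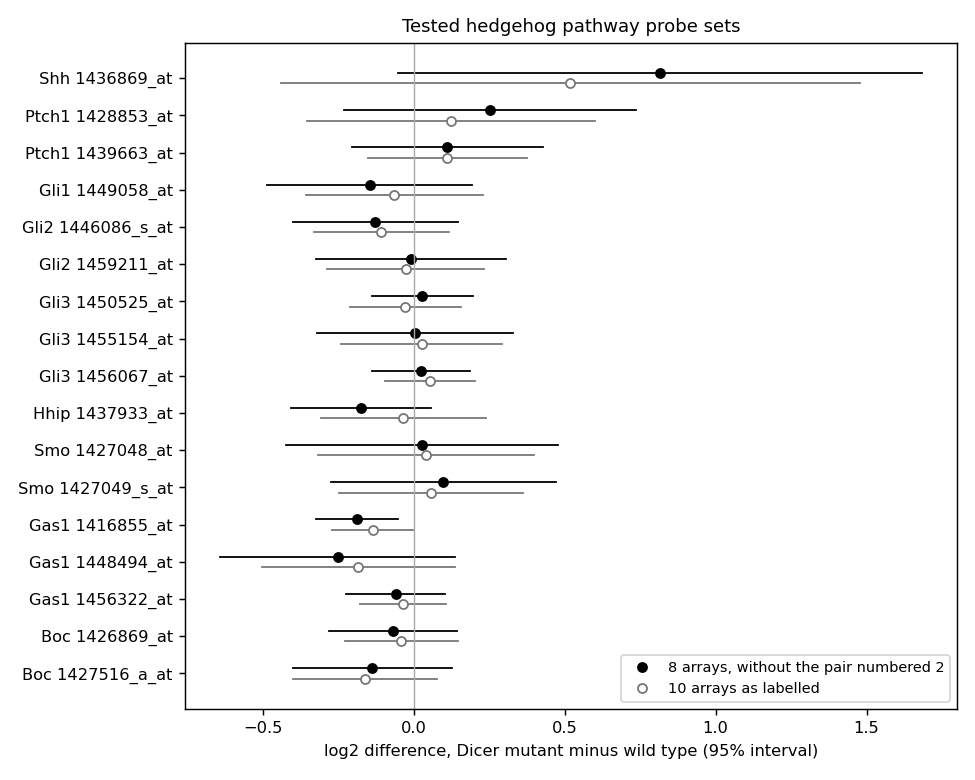
Log2 difference, Dicer mutant minus wild type, of the 17 tested hedgehog pathway probe sets with 95% intervals from the limma fit, for the 8 arrays without the pair numbered 2 (filled) and all 10 arrays as labelled (open). Shh stands farthest to the right with the widest intervals, and the points of the other 16 lie between -0.25 and 0.25 in the 8 arrays.

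Shh, the ligand, had the largest difference of the members, and it rested on which wild type arrays were included. The signal of probe set 1436869_at was 255.8, 83.7, 342.9, 236.7 and 393.3 in Dicer mutant 1 to 5, against 147.3, 133.7, 98.0, 142.5 and 411.8 in wild type 1 to 5. The library labelled Dicer mutant 2, whose Dicer1 signal was close to those of wild type arrays, was the lowest of all and wild type 5 the highest, and the groups overlapped with or without the pair numbered 2. In the 8 arrays Shh averaged 307 ± 73.7 in Dicer mutant and 199.9 ± 143 in wild type limb buds (SD, n = 4 each). The difference of 0.82 (SE 0.39, 95% interval -0.05 to 1.69, limma adjusted p = 0.436, n = 4 per group) did not pass the test. Mutant arrays were higher in 3 of 4 pairs, with ratios to the same-numbered wild type array of 1.74, 3.50 and 1.66 for numbers 1, 3 and 4 and 0.955 for number 5. With all 10 arrays the difference was 0.52 (SE 0.44, adjusted p = 1.00), and the pair numbered 2 had a ratio of 0.626.

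The call for Shh changed with the setting, and with the treatment of wild type 5 in particular. Without that array, the 8-array difference was 1.24 (SE 0.21, limma adjusted p = 0.0233), while 745 of all probe sets were called (3.31%) and Shh was the 1 member among them. In the 10 arrays without wild type 5 it was 0.85 (SE 0.38, adjusted p = 0.997). Pairs 1 and 3 alone gave 1.3 (SE 0.21, limma adjusted p = 0.0270), where 3.61% of all probe sets were called. Pairs 4 and 5 alone gave 0.33 (SE 0.53, adjusted p = 0.877), where 0 of all were called. The difference between those 2 effects, tested as an interaction, was -0.97 (SE 0.67, adjusted p = 0.945), so it did not pass. Weighting arrays by their fit, which gave wild type 5 the lowest weight of the 8 (0.296), called Shh with that array included, at 1.22 (adjusted p = 0.0246), in a setting that called 11.6% of all probe sets. Without both arrays numbered 5, a setting added after the data were seen, the difference was 1.11 (adjusted p = 0.0536) and not called. The second Shh probe set, 1427571_at, lay under the filter in all 10 arrays, at 93.9 to 128.8 in Dicer mutant and 106.0 to 123.3 in wild type arrays, and so gives no second reading of the size.

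The summed signal of the muscle markers, and of some other marker lists, varied with Shh from array to array. The 11 muscle genes had their highest summed signals in Dicer mutant 2 (9011) and wild type 3 (7528), the arrays with the least Shh, and their lowest in Dicer mutant 5 (2698) and wild type 5 (2620), those with the most. Bright genes weigh most in this sum, such as Actc1 with 3921 in Dicer mutant 2. Not every muscle gene had this order: Pax3 was highest in Dicer mutant 5 (221.1) and wild type 5 (210.6). The range of the muscle sum was 2698 to 9011 in Dicer mutant and 2620 to 7528 in wild type arrays. The order was not particular to muscle. Cartilage (7450, 7699) and nerve (1535, 1466) sums were also highest in Dicer mutant 2 and wild type 3. They were lowest in Dicer mutant 5 (5031, 1108) and wild type 5 (5874, 1143). Endothelium had the opposite order, lowest in Dicer mutant 2 (2133) and wild type 3 (2231) and highest in Dicer mutant 5 (2400) and wild type 5 (2836). The part of these cell types in the Shh values was not tested. In RNA from whole limb buds, fewer cells of a type and less RNA per cell cannot be told apart. Tbx4, a gene of the hindlimb, gave 297.5, 214.3, 319.8, 207.8 and 220.3 in Dicer mutant 1 to 5, against 192.2, 272.7, 205.5, 137.1 and 160.1 in wild type 1 to 5. Tbx5, a gene of the forelimb, gave 481.0, 579.1, 497.1, 619.4 and 681.1 in Dicer mutant 1 to 5, against 578.0, 483.6, 589.0, 766.0 and 688.7 in wild type 1 to 5. In each pair but number 2, Tbx4 was higher and Tbx5 lower in the Dicer mutant array, with the opposite order in that pair. Pitx1, also a hindlimb gene, did not share this order, at 175.6, 152.4, 177.7, 161.7 and 168.0 in Dicer mutant 1 to 5, against 177.2, 153.7, 159.2, 175.9 and 169.9 in wild type 1 to 5. The part of these genes was not tested. Fgf8, which the apical ridge makes and which is known to sustain Shh, gave 189.0, 122.7, 240.2, 168.2 and 195.3 in Dicer mutant 1 to 5, against 169.4, 185.5, 132.3, 157.3 and 254.5 in wild type 1 to 5. Its lowest and highest arrays were those of Shh, Dicer mutant 2 and wild type 5, and its part was not tested. The sum of the ectoderm list that holds Fgf8 was 4143 to 4722 in Dicer mutant and 4244 to 5130 in wild type arrays.

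**Figure D2:**
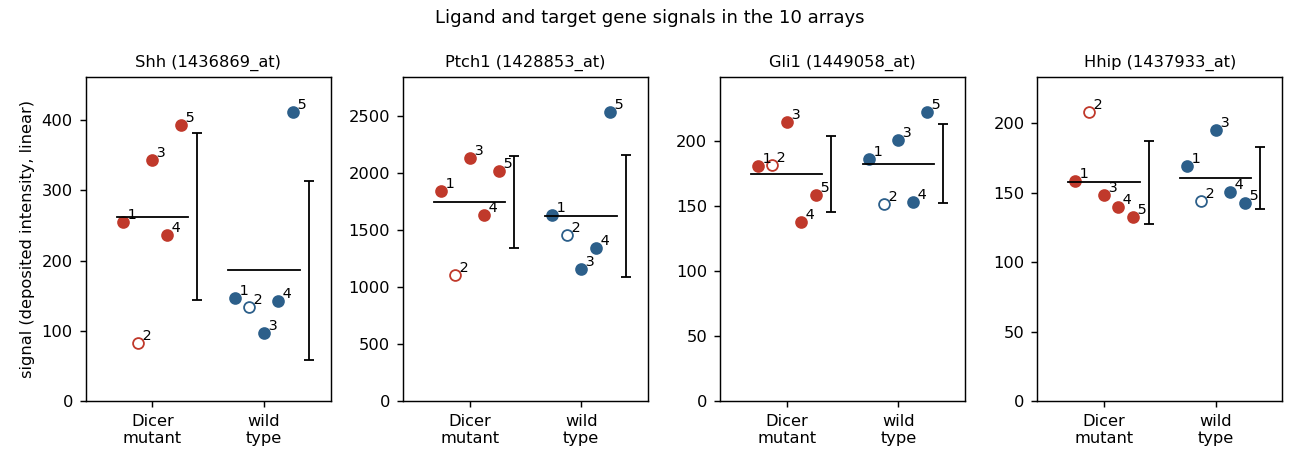
Signal of Shh, Ptch1, Gli1 and Hhip in each array, Dicer mutant left and wild type right, on linear axes from 0; digits are array numbers, open points the pair numbered 2, horizontal bars group means and error bars 1 SD (n = 5). Wild type 5 has the highest signal of Shh, Ptch1 and Gli1, and Dicer mutant 2 the lowest of Shh and Ptch1 and the highest of Hhip.

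Ptch1, at once receptor and target, followed Shh and was not called. Probe set 1428853_at gave 1840, 1107, 2134, 1631 and 2014 in Dicer mutant 1 to 5, against 1628, 1457, 1156, 1340 and 2534 in wild type 1 to 5. The arrays at both ends were those of Shh, Dicer mutant 2 and wild type 5, and the groups overlapped. In the 8 arrays Ptch1 averaged 1905 ± 219 in Dicer mutant and 1665 ± 611 in wild type limb buds (SD, n = 4 each), a difference of 0.25 (SE 0.22, 95% interval -0.23 to 0.74, limma adjusted p = 0.757). With all 10 arrays it was 0.12 (SE 0.22), and in the 8 without wild type 5 it was 0.48 (SE 0.13, adjusted p = 0.105). In pairs 4 and 5 alone, where 0 of all probe sets were called, it turned to -0.02 (adjusted p = 0.986). A dimmer probe set, 1439663_at, had 213.8 to 260.4 in Dicer mutant and 175.0 to 267.2 in wild type arrays and a difference of 0.11 in either comparison, and 1450824_at lay under the filter, at 116.7 to 155.4 and 116.1 to 151.9.

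Across the 10 arrays, whatever their label, the Shh and Ptch1 signals went together. Pearson's r on the log2 scale was 0.96 and Spearman's rho 0.98 (n = 10 arrays; permutation p = 2.0e-05 for each and 0.00012 after Benjamini-Hochberg adjustment over 6 relations among Shh, Ptch1, Gli1 and Hhip). Without Dicer mutant 2 and wild type 5, the 2 arrays farthest from the median of Shh, r was 0.94. The first principal component, 37.7% of the variance of all tested probe sets, separated the arrays numbered 1 to 3 from those numbered 4 and 5. Within the 6 arrays numbered 1 to 3, r was 0.98, and the 4 others are too few for a value. Shh itself averaged 0.81 higher on the log2 scale in numbers 4 and 5 than in numbers 1 to 3, Ptch1 0.27 higher, Gli1 0.16 lower and Hhip 0.26 lower. The permutations took the 10 arrays as exchangeable, so r was also computed with each of these array sets centred on its own mean, a setting added after the data were seen, and was then 0.96 for Shh and Ptch1. Of all 11601 genes, only Frzb had a higher r with Shh than Ptch1 did.

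Gli1, which is transcribed almost only in cells that receive the signal, showed no relation to Shh that passed the test. Probe set 1449058_at, its only one, gave 180.6, 181.2, 214.5, 137.3 and 158.2 in Dicer mutant 1 to 5, against 185.9, 151.5, 200.2, 152.6 and 222.1 in wild type 1 to 5. The groups overlapped, and all values were close to the filter, at an unknown distance from background. The 8-array difference was -0.15 (SE 0.15, 95% interval -0.49 to 0.19, limma adjusted p = 0.821), and the 10-array one was -0.07 (SE 0.13). Gli1 and Shh had an r of 0.17 and a rho of 0.26 (n = 10 arrays, permutation p = 0.627 and 0.470, adjusted 0.627 and 0.470), and r was -0.01 without the 2 farthest arrays and 0.44 with the array sets centred. Gli1 and Ptch1 had an r of 0.33 and a rho of 0.31 (permutation p = 0.352 and 0.386, adjusted 0.423 and 0.463; r 0.15 without the 2 farthest arrays and 0.53 with the array sets centred).

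**Figure D3:**
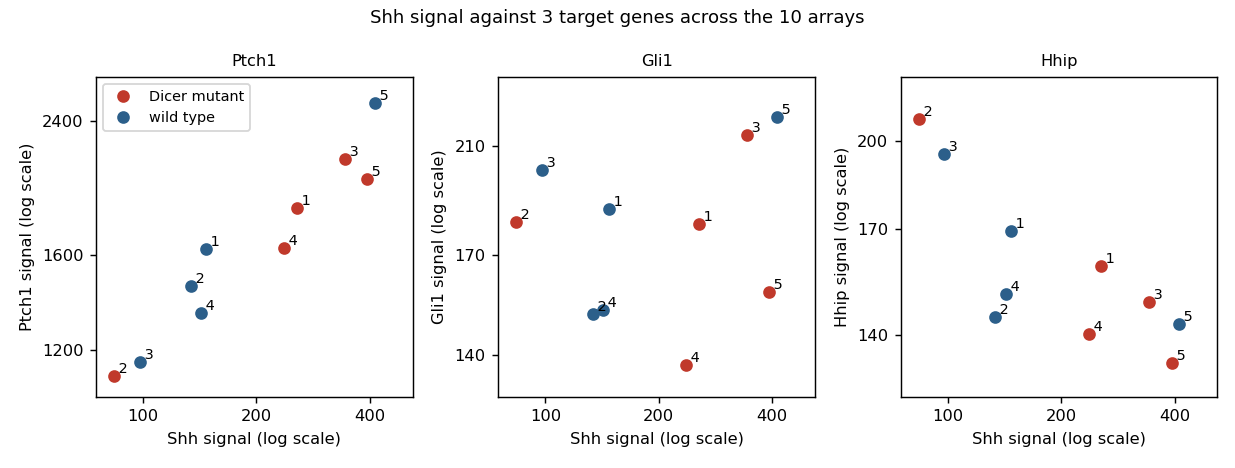
Signal of Ptch1, Gli1 and Hhip against that of Shh in the 10 arrays, on log axes, with Dicer mutant arrays in red and wild type arrays in blue and array numbers as digits. Ptch1 climbs with Shh (r = 0.96), Gli1 shows no clear order (r = 0.17) and Hhip is lower where Shh is higher (r = -0.79).

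Hhip encodes a membrane-bound protein that binds and holds back the ligand, and its only tested probe set ran against Shh. Its tested probe set 1437933_at gave 158.8, 208.3, 148.6, 140.1 and 132.8 in Dicer mutant 1 to 5, against 169.4, 144.5, 195.4, 151.0 and 142.7 in wild type 1 to 5. Each Dicer mutant array stood below the wild type array of its number except in the pair numbered 2, and the groups overlapped. The 8-array difference was -0.18 (SE 0.10, 95% interval -0.41 to 0.06, limma adjusted p = 0.574), and with all 10 arrays it was -0.03 (SE 0.12). With Shh the signal had an r of -0.79 (n = 10 arrays, permutation p = 0.00469, adjusted 0.0141) and a rho of -0.71 (p = 0.0274, adjusted 0.0701), so that only the first passed the adjustment. This r was -0.70 without Dicer mutant 2 and wild type 5 and -0.75 in the 6 arrays numbered 1 to 3, and with the array sets centred it was -0.71. By r with Shh, highest first, Hhip ranked at 11144 among the 11601 genes, so many other genes had a lower r. Hhip and Ptch1 had an r of -0.73 (permutation p = 0.0158, adjusted 0.0317) and a rho of -0.68 (p = 0.0351, adjusted 0.0701), and r was -0.61 without the 2 farthest arrays, -0.81 in arrays 1 to 3 and -0.69 with the array sets centred. Hhip and Gli1 had an r of 0.34 and a rho of 0.33 (permutation p = 0.337 and 0.346, adjusted 0.423 and 0.463).

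Hhip had 3 further probe sets, all under the filter. The dimmest, 1438083_at, gave 30.4, 83.3, 36.8, 42.0 and 31.0 in Dicer mutant 1 to 5, against 50.9, 35.7, 51.7, 48.9 and 41.5 in wild type 1 to 5. In the 8 arrays the groups met only at Dicer mutant 4 and wild type 5, and the arrays numbered 2 lay the other way round. With no filter its difference was -0.47 (SE 0.12, limma adjusted p = 0.156), and that of 1455277_at was -0.33 (SE 0.09, adjusted p = 0.207). The remaining one, 1421426_at, had -0.13 (SE 0.10, adjusted p = 0.840). None of the 4 passed, and at signals this low the size of a difference is uncertain.

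Gli2 and Gli3, the factors that carry the signal to the genome, differed little between the groups. Gli2 had 634.5 to 886.0 in Dicer mutant and 632.3 to 909.4 in wild type arrays at 1459211_at, with an 8-array difference of -0.01 (SE 0.14, 95% interval -0.33 to 0.30). Its other probe set, 1446086_s_at, whose target can be shared between transcripts, had 367.0 to 473.2 and 373.0 to 514.0 and a difference of -0.13 (SE 0.12). The Dicer mutant array was below its wild type partner in each of the 4 pairs there, by 0.02 to 0.24. The pair numbered 2 had the same order, at -0.03. Gli3, whose repressor form limits digit number, had 3 tested probe sets at 0.02 (SE 0.07), 0.00 (SE 0.14) and 0.03 (SE 0.07). The brightest of these in the mean, 1456067_at, had 1121 to 1228 in Dicer mutant and 1084 to 1251 in wild type arrays, with an interval of -0.14 to 0.19. Limma adjusted p-values of these 5 probe sets were 0.798 to 0.998. With all 10 arrays their differences lay between -0.11 and 0.05.

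Smo, the signal transducer at the membrane, also overlapped between the groups and instead followed the array numbers. Probe set 1427048_at gave 1110, 994, 1185, 728 and 805 in Dicer mutant 1 to 5, against 1135, 936, 1098, 735 and 776 in wild type 1 to 5. Every array numbered 4 or 5 was below every array numbered 1 to 3, in both groups. The same held for Smo at 1427049_s_at and for Gli2 at 1459211_at. This makes 3 of the 17 tested member probe sets, against 20% of all, so it does not set the members apart. The group difference of Smo in the 8 arrays was 0.03 (SE 0.20, 95% interval -0.42 to 0.48, limma adjusted p = 0.985) and 0.10 (SE 0.17, adjusted p = 0.914), and with all 10 arrays 0.04 (SE 0.16) and 0.06 (SE 0.14). One more Smo probe set, 1442215_at, lay under the filter, at 38.6 to 67.9 and 42.2 to 63.3, and was higher in the arrays numbered 4 and 5. What the numbers mark is not given in the labels.

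Gas1 was the only member with a probe set whose groups did not overlap in the 8 arrays, which 9.09% of all tested probe sets did. Probe set 1416855_at gave 3033, 3102, 2905, 2628 and 2762 in Dicer mutant 1 to 5, against 3205, 2946, 3230, 3072 and 3396 in wild type 1 to 5. The Dicer mutant arrays 1, 3, 4 and 5 were all below the wild type arrays of those numbers, and the pair numbered 2 had the opposite order. With all 10 arrays, 0 members and 0.4% of all probe sets had groups that did not overlap. In the 8 arrays Gas1 averaged 2832 ± 175 in Dicer mutant and 3226 ± 133 in wild type limb buds (SD, n = 4 each), a difference of -0.19 (SE 0.06, 95% interval -0.33 to -0.05), where the 10 arrays gave -0.14 (SE 0.06, interval -0.27 to -0.0014). This had the smallest adjusted p of the members (limma adjusted p = 0.202). Array weights brought it below the threshold, at -0.22 (adjusted p = 0.020), where 11.6% of all probe sets were called. The other Gas1 probe sets gave -0.25 (SE 0.17, adjusted p = 0.657) at 1448494_at, with 1232 to 1946 in Dicer mutant and 1404 to 2076 in wild type arrays, and -0.06 (SE 0.07, adjusted p = 0.861) at 1456322_at, with 10-array values of -0.18 and -0.04.

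Boc, the other co-receptor gene, was not called at either tested probe set. It had 697.2 to 1009 in Dicer mutant and 841.4 to 980.7 in wild type arrays at 1427516_a_at, with an 8-array difference of -0.14 (SE 0.12, 95% interval -0.40 to 0.13, limma adjusted p = 0.757) and a 10-array one of -0.16 (SE 0.11). At 1426869_at it had -0.07 (SE 0.10, adjusted p = 0.883), and -0.04 with all 10 arrays, and 1427517_at lay under the filter, at 97.9 to 138.9 and 119.8 to 139.6. For the 16 tested probe sets other than that of Shh, the 95% intervals of the 8 arrays reached from -0.64 to 0.74 at most. The interaction of the mutant effect with the array numbers, pairs 4 and 5 against pairs 1 and 3, passed for none of the 17 and for 0 of all 22519 (limma, 643 of these at an unadjusted p below 0.05).

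**Figure D4:**
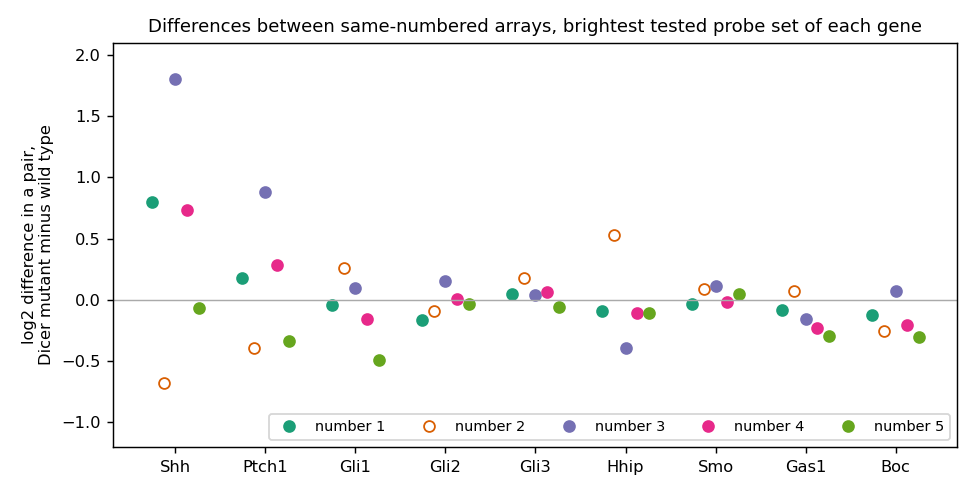
Log2 difference between the Dicer mutant and wild type arrays that share a number, for the brightest tested probe set of each of the 9 genes; colours give the number and open points the pair numbered 2. Shh has the widest spread, from -0.68 in pair 2 to 1.81 in pair 3. Ptch1 is also lowest in pair 2 and highest in pair 3, from -0.40 to 0.88, and Gas1 is below 0 in pairs 1, 3, 4 and 5.

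Genes most like these members were looked for by Pearson's r over the 10 arrays, given without a test. For Shh these were Frzb (r = 0.96), which encodes a secreted Wnt antagonist, Ptch1, and Ppp1r15b (r = 0.95), which encodes a phosphatase subunit of the stress response. Frzb had 1540, 793, 1796, 1536 and 1842 in Dicer mutant 1 to 5, against 1147, 1335, 808, 1115 and 1955 in wild type 1 to 5, with its lowest and highest values in the same 2 arrays as Shh. Grem1, a BMP antagonist gene that limb buds need to keep Shh active, ranked at 127 among the 11601 genes (r = 0.84). For the mean of standardised Ptch1, Gli1 and Hhip signals, the leading genes were Palm (r = 0.94), Sptbn1 (0.91), Arhgap32 (0.91), Uaca (0.90) and Fam53a (0.90). Since Hhip at its tested probe set ran against Ptch1, that mean is no single response, and Shh had an r of 0.20 with it.

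Among the other genes of the pathway, those of ligand release, reception and transduction were not called. Of 25 tested, 0 were higher and 0 lower by limma in the 8 arrays, with a median of -0.03 against -0.01 for all genes. Scube3, of a family whose secreted proteins help release the ligand, stood at 0.27 (SE 0.09, adjusted p = 0.194), higher in 4 of 4 pairs. Prkacb, a catalytic subunit of the protein kinase that marks GLI proteins for cleavage, stood at -0.22 (SE 0.08, adjusted p = 0.276), lower in 4 of 4 pairs. Gpc3, a glypican that competes for the ligand, stood at -0.09 and Evc, a ciliary partner of Smo, at -0.25 (adjusted p = 0.665 and 0.717). The primary cilium, where Smo and the GLI proteins act, gave 0 calls of 19 tested genes in the same test. Its median was -0.11 against -0.01 for all genes, with 13 values below and 6 above 0. The smallest p-values were those of Wdr35 (-0.28, adjusted p = 0.156), Ift52 (-0.18, 0.370), Ift80 (-0.16, 0.393) and Ift140 (-0.22, 0.442), each lower in 4 of 4 pairs. In the 10 arrays these 4 stood between -0.16 and -0.08, Scube3 at 0.12 (SE 0.11) and Prkacb at -0.16 (SE 0.09). Array weights in the 8 arrays, which called 11.6% of all probe sets, changed some calls. Prkacb and Evc then had a limma adjusted p of 0.0449 each, Wdr35 0.0390 and Ift140 0.0260. Ift140 was also called with the array set as a block (0.0449), where 6.83% of all were.

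**Figure D5:**
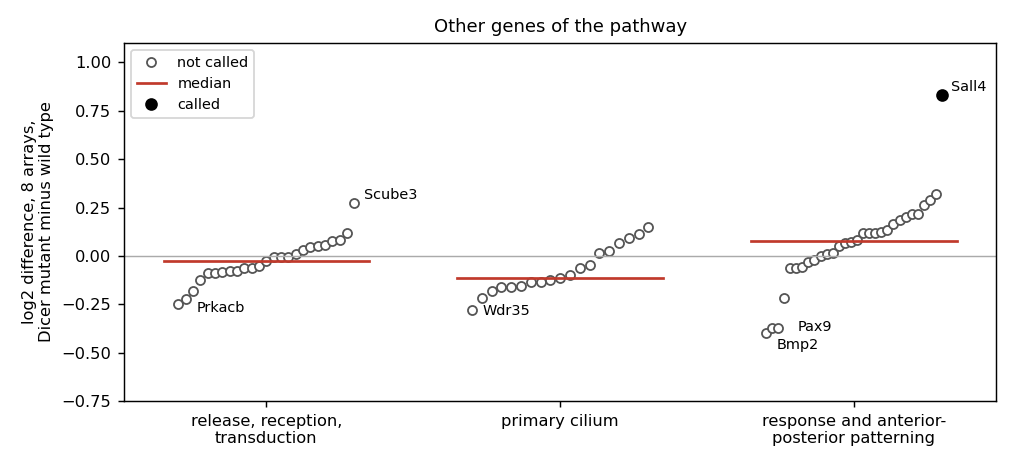
Log2 difference, Dicer mutant minus wild type, in the 8 arrays for the tested genes of 3 lists (25, 19 and 30 genes), sorted within each list; filled points passed the test and red lines are list medians. Sall4 is the 1 called gene, at 0.83.

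Genes that respond to the signal or pattern the limb from anterior to posterior gave 1 call of 30 tested in the 8 arrays, 1 higher and 0 lower, with a median of 0.08; over all probe sets 1.68% were called, a share at which 1 of 30 does not set the list apart. Sall4, a zinc finger gene of early limb buds, rose by 0.83 (SE 0.16, limma adjusted p = 0.0408). Its signal was 358.3, 108.3, 381.1, 284.5 and 396.1 in Dicer mutant 1 to 5, against 222.2, 291.1, 151.1, 185.4 and 246.8 in wild type 1 to 5, so that the pair numbered 2 again had the opposite order. The call held without wild type 5 (adjusted p = 0.0223) and was lost without any other single array of the 8 (0.0545 to 0.127) and with no filter (0.0538), at differences of 0.70 to 0.94. In the 10 arrays as labelled its difference was 0.38 (SE 0.32), and 0 genes of these 3 lists were called. Pax9, a gene of the anterior margin, stood at -0.37 (adjusted p = 0.119, with the replicate number as a block 0.0263, without wild type 5 0.0418, with array weights 0.00523, with pairs 4 and 5 alone 0.439). It gave 221.1, 216.0, 227.7, 192.8 and 183.2 in Dicer mutant 1 to 5, against 271.2, 221.9, 284.8, 279.5 and 230.0 in wild type 1 to 5. The groups of the 8 arrays did not overlap, which held for 9.09% of all tested probe sets, and were closest at Dicer mutant 3 and wild type 5. Bmp2, a target of Shh in posterior mesenchyme, stood at -0.39 (adjusted p = 0.148, with the replicate block 0.0348), and with array weights at -0.23 (adjusted p = 0.126). Its limma adjusted p was 0.0117 with the array set as a block, 0.0408 with pairs 1 and 3 alone and 0.487 with pairs 4 and 5 alone. Of all probe sets, the replicate block called 5.41%, the array set as a block 6.83%, pairs 1 and 3 alone 3.61%, pairs 4 and 5 alone 0% and array weights 11.6%. Ccnd1, a cell cycle target, stood at 0.22 (adjusted p = 0.273). In the 10 arrays Pax9 stood at -0.30 (SE 0.09), Bmp2 at -0.30 (SE 0.12) and Ccnd1 at 0.17 (SE 0.07). Both Pax9 and Bmp2 were lower in 4 of 4 pairs. Hand2, the posterior factor that switches Shh on, had 2517, 2045, 2733, 1803 and 1931 in Dicer mutant 1 to 5, against 2413, 2524, 2191, 1735 and 1882 in wild type 1 to 5 and a difference of 0.12 (adjusted p = 0.873; 0.03 in the 10 arrays). Grem1 had 269.4, 152.3, 266.3, 197.3 and 269.7 in Dicer mutant 1 to 5, against 224.6, 236.2, 157.1, 175.0 and 444.7 in wild type 1 to 5. As with Shh, wild type 5 was the highest array and Dicer mutant 2 the lowest, and the difference of 0.12 became 0.44 without wild type 5 (adjusted p = 0.949 and 0.192) and was -0.03 in the 10 arrays.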

How the data were processed

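Biotin-labelled RNA of 10 limb bud samples was put on Affymetrix arrays, per the labels' protocols. The values are linear intensity signals as deposited, and GCOS 1.3 is named in the submitters' processing notes. The sources used here name no summarising or scaling method and hold no detection calls. The arrays' 2% trimmed means lay within 4.76% of each other, so no normalization was added. Intensities under 1 were set to 1, log2 was taken, 64 control probe sets were dropped, and the 22519 probe sets at or above the median mean log2 value were tested with limma 3.58.1 in R 4.3.3 (eBayes with an intensity trend, Benjamini-Hochberg over all tested, threshold 0.05), which was checked on simulated data. Gene symbols came from the platform annotation (34945 probe sets with 1 symbol, 932 with several). Promoter windows are RefSeq's, build GRCm38.p6; relations used 100000 permutations, two-sided.

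The members and lists were chosen with earlier results of these data known. All member probe sets are named; of each other list, called genes and, up to 4, those of smallest p; of likeness, 5 and 3 genes. Hand2 and Grem1 were singled out after their values were seen. Deviations of same-numbered arrays correlated at -0.18 for number 2 in the 10 arrays, and at 0.55, 0.55, 0.71 and 0.32 for numbers 1, 3, 4 and 5 in the 8, where the highest with another number reached 0.54; the replicate block was used as an alternative. Other alternatives were quantile normalization, median centring, offsets of 16 and 64, no filter or one at the 70th percentile, no trend, array weights, array sets, the mean of a gene's probe sets, and leaving out each array.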

Additional observations from a re-analysis of the deposited data

Results flagged for a closer look

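In 3 of 34 groups of 5 arrays (17 tested probe sets, each in both labelled groups) 1 array lay far from the others by Dixon's test, which chance does in about 1 of 20 groups. The Shh signal of wild type 5 was 411.8 at 1436869_at, where the other wild type arrays lay between 98.0 and 147.3. The Gli3 signal of wild type 4 was 842.1 at 1455154_at, the lowest of its group. The Gli3 signal of wild type 5 was 1251.3 at 1456067_at, the highest of its group.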

How the results depend on the processing

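In the 8 arrays, 0 member probe sets were called by limma, and with array weights 3 were (Shh, Gas1 and Hhip), with Hhip at -0.33 (adjusted p = 0.0391); pairs 1 and 3 alone gave 1 (Shh). Leaving out single arrays gave 0 to 1, the 1 being Shh without wild type 5. In the 10 arrays 0 were called under every alternative run. The members' median, -0.011 in the 8 arrays, was -0.22 with array weights, against -0.041 for all genes. When single arrays were left out it was -0.097 to 0.021, the lowest without wild type 4. In the 10 arrays it was -0.027, and -0.19 with array weights, against -0.040 for all genes. With array weights, the median of the 9 genes was in both comparisons the value of Gas1 at 1416855_at. The replicate block changed no member's call: 0 in either comparison, with Shh at an adjusted p of 0.127 and Gas1 at 0.0764 in the 8 arrays. It raised the calls over all probe sets from 378 to 1219; array weights gave 2612, the array set as a block 1538, pairs 1 and 3 alone 812, pairs 4 and 5 alone 0, and single arrays left out 93 to 745. Of 352 member values under alternatives in the 8 arrays, 347 kept their side of the threshold and 23 uncalled ones changed sign, as did 30 of 335 in the 10 arrays. Without detection calls, how far Shh, Gli1 and Hhip lay above background is unknown.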
